A study of Mus musculus with 28 samples.

Results

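The Th17 genes described here are 7 genes that mark or equip IL-17-producing CD4+ helper T cells: *Rora*, *Ahr*, *Il17a*, *Il17f*, *Il22*, *Il23r* and *Ccr6*. They were chosen by name and not by a cut on their values, though with earlier results of these data known. All 7 were found among the 24089 genes of the RNA-seq table. The study asked how TGF-β and IL-4 together turn activated mouse CD4+ T cells into IL-9-producing Th9 cells, and the question taken here is what the same cultures did to the Th17 genes. Naïve CD4+ CD62L+ T cells from spleen and lymph nodes were stimulated through the T cell receptor with anti-CD3 and anti-CD28 in every group, and received no further cytokine (control), one of TGF-β and IL-4, or the pair of them (TGF-β + IL-4). The mice were young adults of both sexes on a C57BL/6 background. The study describes *Tgfbr1* f/f *Ert2-cre* mice, in which tamoxifen deletes *Tgfbr1* (KO), the gene of TGF-β receptor I, and also a *Tgfbr1* f/f *Cd4-cre* line. The DNase-seq labels say that KO animals received tamoxifen and WT animals oil, as with *Ert2-cre*. The RNA-seq labels give the genotype alone, so the same line is assumed there. Where WT animals received oil, the loss of the gene and tamoxifen itself cannot be told apart. A tamoxifen-activated Cre of this kind is not limited to T cells, so other cells of the KO animals could have lost the gene before the T cells were taken. RNA-seq, by the Smart-seq2 method, gave 24 libraries, 3 for each of the 8 combinations of genotype and culture. Their labels number the replicates within a genotype without saying whether a number is 1 animal, so the p-values below measure the spread between libraries, which may be partly technical. DNase-seq, which maps open chromatin, gave 4 lists of DNase hypersensitive sites (DHSs), 1 each for control and TGF-β + IL-4 in WT and in KO, all numbered 3. The length of the cultures used for sequencing is not given in the labels.

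Th17 cells arise from naïve CD4+ T cells that receive TGF-β together with IL-6, and IL-23 sustains them. RORα, the product of *Rora*, is a nuclear receptor that promotes the Th17 programme. The aryl hydrocarbon receptor, product of *Ahr*, is a ligand-activated transcription factor that promotes IL-22. IL-17A and IL-17F are neighbouring cytokine genes whose products act on epithelium and stroma to recruit neutrophils, IL-22 acts on epithelial barriers, the product of *Il23r* is the specific subunit of the IL-23 receptor, and CCR6 guides cells towards its ligand CCL20. TGF-β without IL-6 favours *Foxp3*-expressing regulatory T cells, and IL-4 opposes the Th17 fate.

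Which culture each RNA-seq column belongs to is in conflict between 2 sources. The column headings give one order, whereas read counts that the authors released for some of the libraries, compared with the columns by which genes are at 0, matched the columns in library-number order. Of the 8 WT libraries with such counts, all 8 agreed best with the column at their position, with at least 99.8% of genes having the same zero status, against at most 85.8% for the next best column. The heading was right for 2 of them and wrong for 6. The columns were therefore read by position, with 4 columns per replicate number in the order control, TGF-β alone, IL-4 alone and the combination. For the other 4 WT columns and all 12 KO columns there were no counts to compare, so their culture rests on the same order and was not tested. Both readings place the same 12 columns in WT and the same 12 in KO. The median over genes of the SD of 3 replicates, in log2 units, lay between 0.0746 and 0.0805 in the WT cultures by position and between 0.0990 and 0.150 as headed. In the KO cultures it lay between 0.0805 and 0.116 by position and between 0.0890 and 0.108 as headed, and these ranges overlapped. With the columns as headed, no member was called by limma in any of the 16 comparisons below, and neither was any other gene (0% of those tested) except in control cells of KO against WT, where 7 of 9672 genes (0.0724%) were. Every result below that names a culture therefore holds only for the columns read by position.

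The upstream sequences of 4 members share a short motif that the selection did not use. RORα binds the half-site AGGTCA, and the letters AGGTCA or their complement TGACCT were found in the promoters (300 bases) of *Il17a*, *Il17f*, *Il23r* and *Ccr6*, once each except for *Il23r* with 2. Of all 32851 RefSeq mouse promoters of that length, 16.3% held the motif. The RefSeq table (GRCm38.p6) had promoters for 6 of the 7 members, with 2 for *Ccr6*, and those of *Rora*, *Il22* and the second of *Ccr6* did not hold these letters. Letters of other factors were searched too, with N for any base. GCGTG, the core of aryl hydrocarbon receptor sites, was found in the promoter of *Rora* alone, against 32.4% of all promoters. TGANTCA (AP-1) was in that of *Il17a* alone (7.81% of all), and TTCNNNGAA (STAT) in the first of *Ccr6* alone (8.30%). The 250 bases before the start of each of the 4 genes whose promoters hold AGGTCA or TGACCT are shown 5′ to 3′ on the gene's strand. These letters, on either strand, are in capitals. Each sequence matched the mm9 genome once, at chr1:20720736-20720985 (*Il17a*, plus strand), chr1:20774352-20774601 (*Il17f*, minus strand), chr6:67441850-67442099 (*Il23r*, minus strand) and chr17:8428658-8428907 (*Ccr6*, plus strand). A match of letters is a description and not a binding site.
Il17a: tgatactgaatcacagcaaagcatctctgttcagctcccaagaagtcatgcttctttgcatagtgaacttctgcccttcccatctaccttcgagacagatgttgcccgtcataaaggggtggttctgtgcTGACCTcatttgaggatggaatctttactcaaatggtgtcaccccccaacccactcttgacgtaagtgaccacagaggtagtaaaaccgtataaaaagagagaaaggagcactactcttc
Il17f: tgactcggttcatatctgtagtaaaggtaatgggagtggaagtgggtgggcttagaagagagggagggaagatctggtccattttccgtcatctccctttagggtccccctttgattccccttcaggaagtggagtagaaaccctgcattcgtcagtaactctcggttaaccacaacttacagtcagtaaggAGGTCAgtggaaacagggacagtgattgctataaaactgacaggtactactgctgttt
Il23r: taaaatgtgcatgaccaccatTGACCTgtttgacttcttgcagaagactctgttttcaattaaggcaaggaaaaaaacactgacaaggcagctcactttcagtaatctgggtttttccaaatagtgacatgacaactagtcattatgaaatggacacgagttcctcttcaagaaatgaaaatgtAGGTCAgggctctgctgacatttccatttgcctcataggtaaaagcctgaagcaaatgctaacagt
Ccr6: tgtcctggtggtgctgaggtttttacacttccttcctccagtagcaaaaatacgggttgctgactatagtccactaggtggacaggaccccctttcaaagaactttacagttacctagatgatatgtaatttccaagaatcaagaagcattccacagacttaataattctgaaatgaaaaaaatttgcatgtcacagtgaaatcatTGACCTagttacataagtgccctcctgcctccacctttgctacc

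The cells carried the markers of CD4+ T cells, with *Cd4* between 75.6 and 122 RPKM in the 24 columns (RPKM, a read number divided by gene length and by library size). *Tgfbr1*, the targeted gene, had 3.02, 3.25 and 3.31 RPKM in WT control and 2.32, 2.55 and 3.05 RPKM in KO control. That difference did not pass the test (adjusted p = 0.164), but 1 value for the whole gene cannot show the loss of a floxed part and so does not check the deletion. In WT, *Tgfbr1* RNA itself rose with TGF-β to a mean of 14.1 RPKM, against 2.68 RPKM in KO with TGF-β. Among the markers of other cells, the summed level of 5 myeloid genes lay between 0.232 and 1.70 RPKM in KO control and between 3.53 and 6.20 RPKM in WT control. With TGF-β it reached 6.00 to 18.4 RPKM in WT and 0.957 to 10.1 RPKM in KO, and with both cytokines 7.10 to 16.7 RPKM in WT and 2.11 to 4.39 RPKM in KO. Most of it was *Lyz2*, while *Csf1r* and *Cd14*, which define monocytes and macrophages, never passed 0.433 and 0.547 RPKM and were at 0 in 3 and 8 columns. Summed B cell markers lay between 8.14 and 33.8 RPKM and the CD8 chains between 14.3 and 36.3 RPKM over all libraries. In control the B cell sum was between 14.8 and 23.3 RPKM in WT and between 9.27 and 10.5 RPKM in KO. The CD8 sum in control was between 24.8 and 26.9 RPKM in WT and between 14.8 and 16.7 RPKM in KO. With both cytokines WT and KO overlapped in either sum. The part of these cells in the results below was not tested. Other innate-like lymphocytes make IL-17, and 7 genes of γδ T cells and ILC3 summed to between 2.87 and 3.31 RPKM in WT control. With TGF-β the sum was between 2.34 and 2.61 RPKM in WT, but the fall was in *Ncr1*, a gene that NK cells also express (means of 1.37 and 0.493 RPKM), and without it the other 6 genes summed to between 1.56 and 1.92 RPKM in control and between 1.92 and 1.97 RPKM with TGF-β. In KO these 6 genes summed to less, between 0.821 and 1.13 RPKM in control and between 0.542 and 0.971 RPKM with TGF-β. The genes did not share this gap evenly. In control the largest part was in *Blk*, with means of 0.818 RPKM in WT and 0.240 RPKM in KO. *Zbtb16* was higher in KO control (0.181 RPKM in WT and 0.212 RPKM in KO), and the remaining genes were lower there by smaller amounts. The part of such cells in the differences between the genotypes was not tested. These are bulk samples, in which fewer cells that express a gene and less RNA per cell cannot be told apart.

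In WT cells TGF-β raised *Ccr6*, *Il17f*, *Ahr* and, at a low level, *Rora*, lowered *Il22* and gave no detectable change of *Il17a*, and in KO cells no member was called. The test was limma, fitted to log2(RPKM + 1) of every gene whose mean in the compared libraries was 1 RPKM or more, and calls needed a fold change over 1.5 and a p under 0.01 after Benjamini-Hochberg adjustment. On this scale the change of genes near 1 RPKM is understated. TGF-β against control called 4 members in WT, 3 higher and 1 lower, where 5.71% of the 9726 genes tested were called, 3.42% higher and 2.28% lower. IL-4 against control called 1 member, *Ccr6*, as lower, against a background of 1.29% in either direction and 0.362% lower. TGF-β + IL-4 against control called 4, *Ahr*, *Ccr6* and *Il17f* higher and *Il22* lower, against 9.27%, of which 6.43% higher and 2.84% lower. The filter left out *Rora* and *Il23r* in all 16 comparisons, so these 2 were tested only in a fit without it. Since a member can pass the filter through the culture in which it is high, these counts describe the members that were tested and not all 7.

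**Figure D1:**
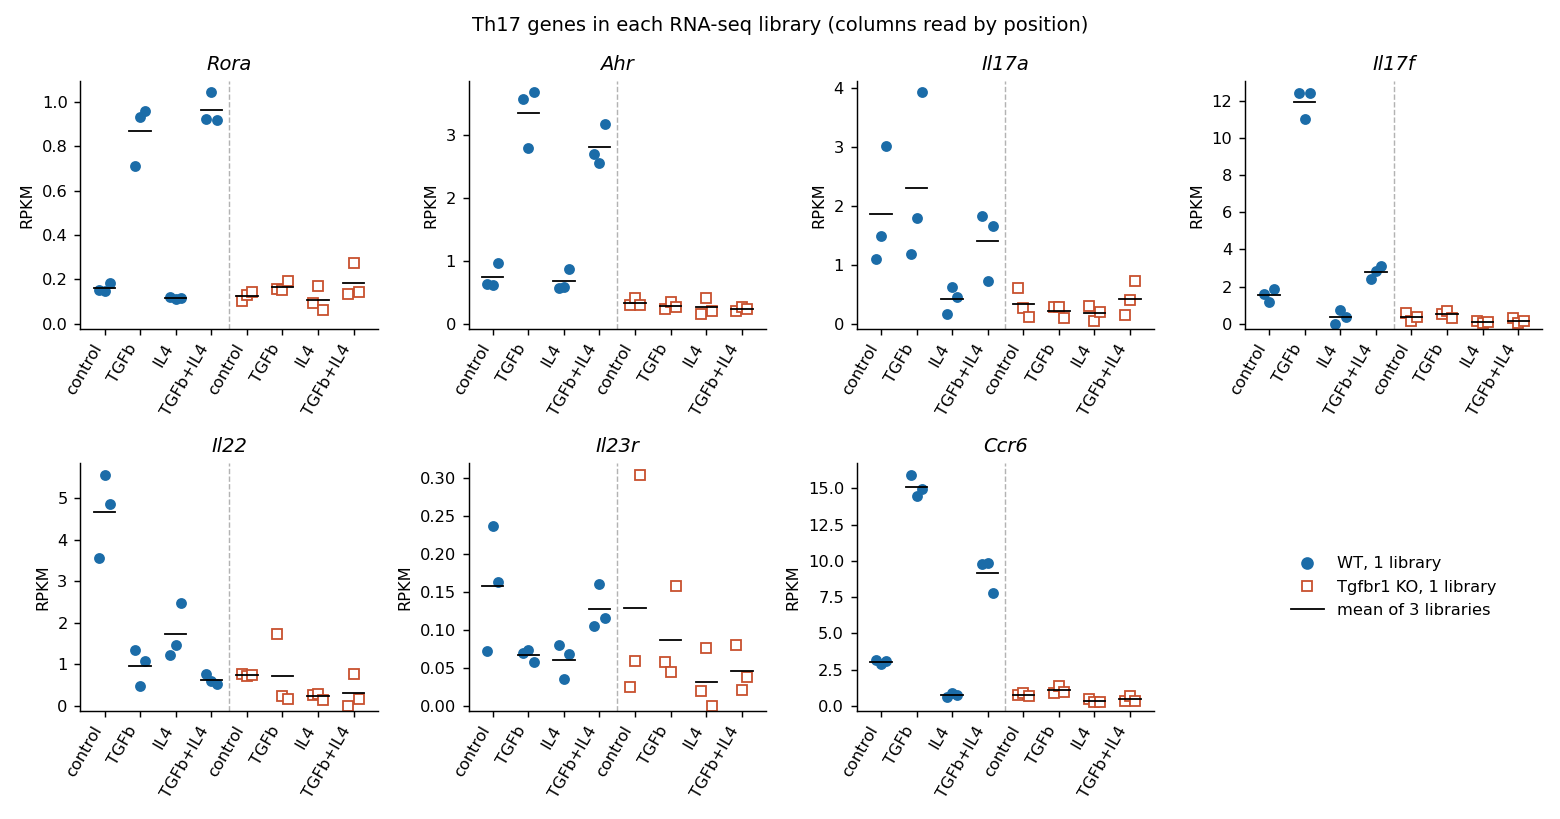
RPKM (linear axis) of the 7 Th17 genes in each of the 24 RNA-seq libraries, by culture, with WT as filled circles and *Tgfbr1* KO as open squares, and a line at the mean of 3 libraries. WT libraries with TGF-β stand above WT control for *Rora*, *Ahr*, *Il17f* and *Ccr6*, *Il22* is highest in WT control, and KO values are at most 1.36 RPKM for *Ccr6* and 0.415 RPKM for *Ahr*. One KO TGF-β library has 1.73 RPKM of *Il22*, above every WT library with TGF-β, and the highest *Il23r* value (0.305 RPKM) is a KO library.

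Among the transcription factors, *Rora* was scarce but moved with TGF-β. It had 0.154, 0.148 and 0.184 RPKM in WT control, 0.709, 0.933 and 0.960 RPKM in WT TGF-β, 0.122, 0.110 and 0.117 RPKM in WT IL-4 and 0.923, 1.05 and 0.919 RPKM in WT TGF-β + IL-4. The 6 WT libraries that received TGF-β all lay above the 6 that did not. The ratio of the means was 5.35 for TGF-β and 5.93 for TGF-β + IL-4 against control. Without the filter the difference in log2(RPKM + 1) was 0.68 (SE 0.06, adjusted p = 8.64e-04, limma) for TGF-β, where 3.28% of genes were called, and 0.76 (SE 0.04, adjusted p = 1.01e-04) for TGF-β + IL-4, where 5.42% were called. Adding IL-4 to TGF-β gave a difference of 0.07 (SE 0.07, adjusted p = 0.591), within the spread of the replicates. With the WT libraries numbered 1 and 3 alone, which the read counts identify, the TGF-β difference was 0.65 and missed the threshold (adjusted p = 0.021).

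*Ahr* followed the same order at a higher level. It had 0.626, 0.616 and 0.974 RPKM in WT control and 0.572, 0.593 and 0.873 RPKM in WT IL-4, against 3.58, 2.79 and 3.69 RPKM in WT TGF-β and 2.70, 2.57 and 3.19 RPKM in WT TGF-β + IL-4. Control and IL-4 overlapped, TGF-β and TGF-β + IL-4 overlapped, and the former pair lay below the latter. In each culture with TGF-β between 282 and 704 reads of *Ahr* stood behind a value, recovered from the steps of the RPKM. *Ahr* rose by 1.32 (SE 0.11, adjusted p = 1.44e-04) with TGF-β and by 1.14 (SE 0.10, adjusted p = 4.39e-05) with TGF-β + IL-4 in log2(RPKM + 1), which correspond to ratios of the means of 4.54 and 3.81. Neither IL-4 alone (difference -0.05 without the filter, adjusted p = 0.88) nor IL-4 on top of TGF-β (difference -0.19, SE 0.11, adjusted p = 0.236) changed it past the threshold.

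The cytokine genes did not move together. *Il17f* had 1.58, 1.15 and 1.90 RPKM in WT control, 12.4, 11.0 and 12.4 RPKM in WT TGF-β, 0, 0.740 and 0.387 RPKM in WT IL-4 and 2.41, 2.85 and 3.13 RPKM in WT TGF-β + IL-4. The 4 cultures did not overlap, and the order was TGF-β, TGF-β + IL-4, control and IL-4. In reads, this was 349 to 508 with TGF-β and 0 to 20 with IL-4. *Il17f* rose with TGF-β by 2.36 (SE 0.11, adjusted p = 7.67e-06), a ratio of the means of 7.76. It was lower in TGF-β + IL-4 than in TGF-β by 1.77 on the log2 scale (difference -1.77, SE 0.09, adjusted p = 3.52e-06), and this contrast called 2 members, both lower, where 3.03% of 9852 genes were called and 0.508% were lower. TGF-β + IL-4 against control was called at 0.59 (SE 0.12, adjusted p = 0.00414), just past the fold threshold, and the call was lost without the filter (0.59, adjusted p = 0.020), with median ratio scaling (0.55), with libraries 1 and 3 alone (0.46) and without any of 4 single libraries (control replicate 1 or 2, TGF-β + IL-4 replicate 2 or 3; 0.47 to 0.60).

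*Il17a*, the neighbour of *Il17f* on chromosome 1, varied widely between replicates. It had 1.10, 1.49 and 3.01 RPKM in WT control, 1.19, 1.80 and 3.93 RPKM in WT TGF-β, 0.170, 0.631 and 0.461 RPKM in WT IL-4 and 1.83, 0.726 and 1.66 RPKM in WT TGF-β + IL-4. Control and TGF-β overlapped over most of their range, with replicate 3 the highest in both, and IL-4 lay below both. The difference for TGF-β was 0.18 (SE 0.33, adjusted p = 0.764) and turned to -0.15 without TGF-β replicate 3 and to -0.02 without control replicate 1. These fits ignore the replicate numbers, and within each number the value with TGF-β was above that in control. Whether a number is 1 animal is not known, and with the number as a replicate block *Il17a* was still not called. For IL-4 it was -0.97 (SE 0.23, adjusted p = 0.0521) and for TGF-β + IL-4 -0.23 (SE 0.25, adjusted p = 0.484), neither past the threshold.

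*Il22* went the other way from *Il17f* in both cultures with TGF-β, although with IL-4 alone the values of both genes lay below control. It had 3.55, 5.56 and 4.87 RPKM in WT control, 1.35, 0.477 and 1.09 RPKM in WT TGF-β, 1.24, 1.48 and 2.48 RPKM in WT IL-4 and 0.763, 0.598 and 0.532 RPKM in WT TGF-β + IL-4. Control was the highest culture, without overlap with any other, and TGF-β overlapped with IL-4 as well as with the combination. The summed markers of NK cells in WT were between 5.75 and 7.96 RPKM in control, 1.25 and 1.32 RPKM in TGF-β, 5.57 and 9.07 RPKM in IL-4 and 2.97 and 3.65 RPKM in TGF-β + IL-4. The largest part of the sum in WT control was *Eomes*, with means of 4.46 RPKM in control, 0.611 RPKM in TGF-β and 2.28 RPKM in IL-4. *Ncr1* (1.37 and 2.95 RPKM), *Klrb1c* (0.818 and 1.38 RPKM) and *Klra8* (0.258 and 0.553 RPKM) rose from control to IL-4 by the means. In KO control the summed NK markers were between 5.32 and 6.21 RPKM. The part of NK cells in the values of *Il22* was not tested. *Il22* fell with TGF-β by 1.53 (SE 0.19, adjusted p = 0.00107) and with TGF-β + IL-4 by 1.78 (SE 0.13, adjusted p = 1.23e-05) in log2(RPKM + 1), from means of 4.66 RPKM to 0.971 and 0.631 RPKM. Without the filter the TGF-β call of *Il22* held with all libraries (adjusted p = 0.00613) but was lost with libraries 1 and 3 alone (0.025) and with any 1 of the 6 libraries left out (0.0116 to 0.0248). IL-4 alone gave a difference of -1.06 (SE 0.18) that missed the threshold (adjusted p = 0.0152) but passed it without IL-4 replicate 3 (-1.25, adjusted p = 0.0055). TGF-β + IL-4 against IL-4 called 4 members, *Ahr*, *Ccr6* and *Il17f* higher and *Il22* lower (-0.72, SE 0.15, adjusted p = 0.00423), where 9.28% of 9829 genes were called, 6.06% higher and 3.21% lower. Without the filter this contrast called 5.35% of genes. The *Il22* call of that contrast was lost without the filter (adjusted p = 0.020), with all 24 libraries in one fit (0.030), with libraries 1 and 3 alone (0.018) and without any one of the TGF-β + IL-4 libraries.

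Of the receptors, *Ccr6* had the highest level and values that lay close together between replicates. It had 3.19, 2.87 and 3.09 RPKM in WT control, 15.9, 14.5 and 14.95 RPKM in WT TGF-β, 0.622, 0.892 and 0.754 RPKM in WT IL-4 and 9.79, 9.88 and 7.76 RPKM in WT TGF-β + IL-4. The 4 cultures did not overlap and stood in the same order as for *Il17f*. *Ccr6* rose with TGF-β by 1.99 (SE 0.07, adjusted p = 1.46e-06) and with TGF-β + IL-4 by 1.32 (SE 0.10, adjusted p = 1.11e-05), and fell with IL-4 by 1.21 (SE 0.08, adjusted p = 1.42e-04), an IL-4 call that held with the filter when any 1 library was left out. Without the filter it was called with all 6 libraries (adjusted p = 0.00217, background 0.497%) but not with libraries 1 and 3 alone (0.048) or with any 1 of the 6 left out (0.0112 to 0.0154). Adding IL-4 to TGF-β gave -0.67 (SE 0.09, adjusted p = 0.00118), and this call was lost without the filter (adjusted p = 0.0101, where 1.17% of genes were called) and without TGF-β + IL-4 replicate 3 (-0.57, below the fold threshold). Adding TGF-β to IL-4 raised it by 2.53 (SE 0.10, adjusted p = 3.77e-07), the largest difference of a member in this contrast, with a ratio of the means of 12.1.

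*Il23r* was close to absent in all cultures. Its RPKM lay between 0.0349 and 0.238 in the 12 WT columns and between 0 and 0.305 in the 12 KO columns, which is 0 to 18 reads a library and 148 reads in all. The WT cultures overlapped except that the libraries with both cytokines, at 0.105, 0.161 and 0.116 RPKM, lay above those with either alone. No comparison of *Il23r* passed the test without the filter, and at this depth a difference between a few reads was not detectable.

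Whether IL-4 changes the effect of TGF-β beyond the sum of both was tested as an interaction in WT. None of the 5 members tested was called by limma, where 1.77% of 9794 genes were (without the filter 0 of 7, against 0.607%), although 3 had an unadjusted p under 0.05. The terms were -0.86 (SE 0.24, adjusted p = 0.0383) for *Il17f*, 0.53 (SE 0.13, adjusted p = 0.0207) for *Ccr6* and 0.81 (SE 0.27, adjusted p = 0.0752) for *Il22*. The *Ccr6* term was called with a pseudocount of 0.1 (1.17, adjusted p = 0.0019) and without TGF-β + IL-4 replicate 3 (0.64, adjusted p = 0.0073). The *Il17f* term changed sign with that pseudocount (0.16) and was called without IL-4 replicate 1 (-1.07, adjusted p = 0.0064), the library with 0 RPKM.

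**Figure D2:**
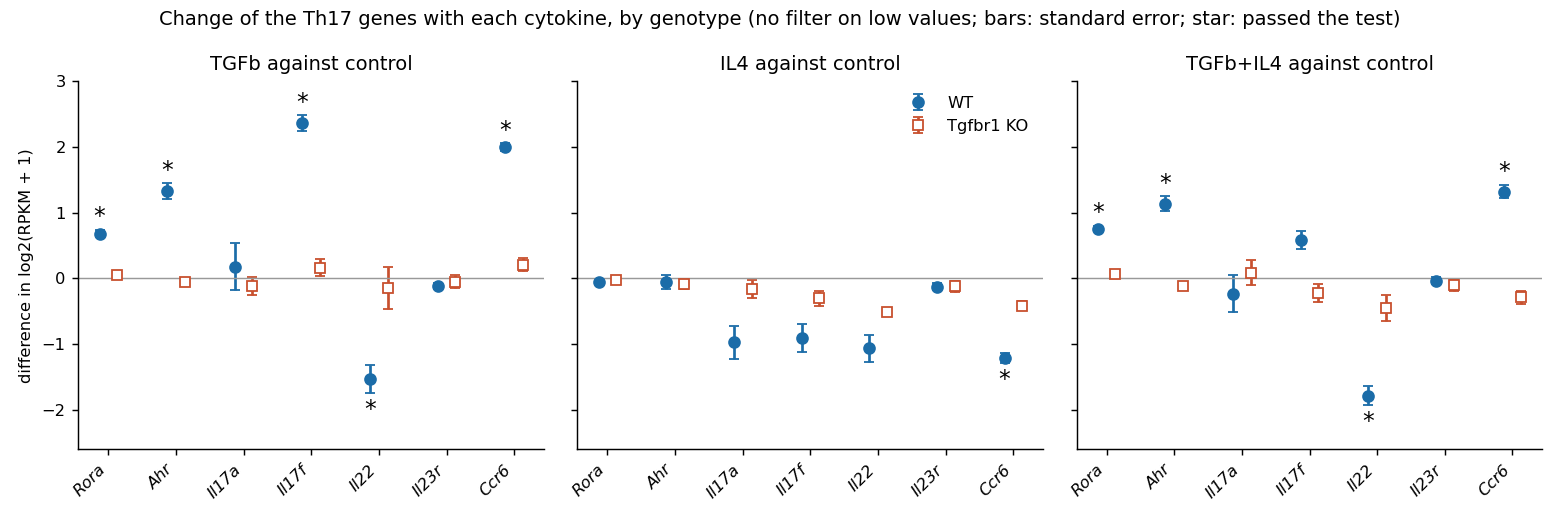
Difference in log2(RPKM + 1) from control with each cytokine alone and with both for the 7 Th17 genes, WT as filled circles and *Tgfbr1* KO as open squares, from the fit without a filter on low values, with bars of 1 standard error and a star where the test was passed. With TGF-β the WT points of *Rora* (0.68), *Ahr* (1.32), *Il17f* (2.36) and *Ccr6* (1.99) lie above 0 and that of *Il22* (-1.53) below, and no KO point carries a star.

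In KO cells no member was called in any culture. With the filter no member could be tested, since each had a mean under 1 RPKM, and without it limma called 0 of 7 for TGF-β, for IL-4 and for the combination against KO control, where 0%, 0.943% and 0.601% of all genes were called. With the filter these contrasts called 0.0105%, 2.51% and 1.92% of genes. At an unadjusted p under 0.05, 0 members stood out for TGF-β, 3 for IL-4 (*Ccr6*, *Il17f* and *Il22*) and 2 for TGF-β + IL-4 (*Ahr* and *Ccr6*), all lower than in control. *Il22* with IL-4 had an adjusted p of 0.0079, but its difference of -0.51 was below the fold threshold. *Ccr6* in KO had 0.777, 0.881 and 0.688 RPKM in control, 0.864, 1.36 and 0.980 RPKM in TGF-β, 0.449, 0.301 and 0.268 RPKM in IL-4 and 0.345, 0.681 and 0.374 RPKM in TGF-β + IL-4, so both cultures with IL-4 lay below control without overlap.

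The response to TGF-β differed between the genotypes for 4 members. The genotype by TGF-β term was -2.19 (SE 0.19, adjusted p = 9.16e-06) for *Il17f*, -1.78 (SE 0.13, adjusted p = 1.24e-06) for *Ccr6* and -1.38 (SE 0.14, adjusted p = 3.42e-05) for *Ahr*, where 4.71% of 9678 genes were called, 2.85% with a negative term. Without WT TGF-β replicate 1 or 3 the mean of *Ahr* fell below the filter and it was not tested, and in the fit without the filter it stayed called with either left out. Without the filter it was -0.63 (SE 0.06, adjusted p = 1.88e-04) for *Rora*, against 2.63%. *Il22* had a term of 1.39 (SE 0.39, adjusted p = 0.0389), which missed the threshold, with KO TGF-β libraries of 1.73, 0.240 and 0.165 RPKM that spanned more than the WT ones. For TGF-β + IL-4 the terms of *Ccr6* (-1.61, SE 0.15, adjusted p = 2.85e-05) and *Ahr* (-1.25, SE 0.14, adjusted p = 8.79e-05) were called, and without the filter that of *Rora* (-0.69, SE 0.06, adjusted p = 1.40e-04), against a background of 4.18% of 9756 genes (2.78% negative, 1.4% positive) with the filter and 2.3% without. *Il22* was also called (1.32, SE 0.26, adjusted p = 0.00492), but not with all libraries in one fit (adjusted p = 0.014), with a pseudocount of 0.1 (0.38), without the filter (0.015) or without any of 8 of the 12 libraries, and with the columns as headed the term was -0.30. The genotype by IL-4 term called none of the 2 members tested, where 0.0414% of genes were called (0.00577% without the filter), and both *Ccr6* (0.79, SE 0.12, adjusted p = 0.0242) and *Il22* (0.55, SE 0.22, adjusted p = 0.563) had an unadjusted p under 0.05.

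Compared directly, KO cells had less of several Th17 genes already without added cytokine. KO against WT in control called *Il22* (-1.68, SE 0.13, adjusted p = 1.58e-04) and *Ccr6* (-1.18, SE 0.08, adjusted p = 1.06e-04), where 2.46% of genes were called, 1.82% as lower in KO (0.962% in either direction without the filter). *Il22* had 0.777, 0.731 and 0.738 RPKM in KO control, 6.22 times less than in WT by the means, and *Ccr6* 3.90 times less. With TGF-β, *Il17f* (-3.10, SE 0.10, adjusted p = 1.72e-07), *Ccr6* (-2.97, SE 0.10, adjusted p = 2.07e-07), *Ahr* (-1.76, SE 0.10, adjusted p = 3.86e-06) and *Il17a* (-1.36, SE 0.25, adjusted p = 0.00353) were called lower in KO, against 9.68% of genes in either direction and 6.53% lower. The *Il17a* call was lost without the filter (adjusted p = 0.016) and without any one of the KO TGF-β libraries. With TGF-β + IL-4, *Ccr6* (-2.79, SE 0.13), *Il17f* (-1.72, SE 0.12) and *Ahr* (-1.62, SE 0.10) were called, all lower, against 8.44% in either direction and 5.73% lower, with adjusted p of 5.57e-06, 3.86e-05 and 2.12e-05. Without the filter *Rora* was also lower in KO with TGF-β (-0.67, SE 0.06, adjusted p = 5.34e-04, background 5.66%) and with TGF-β + IL-4 (-0.73, SE 0.06, adjusted p = 7.56e-04, background 4.79%). With IL-4 alone no member passed the filter and none was called without it, where the backgrounds were 2.99% and 0.908%, and 3 (*Ahr*, *Ccr6* and *Il22*) had an unadjusted p under 0.05.

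Some differences between the genotypes do not need the order of the columns. All 12 WT columns of *Ahr* (0.572 to 3.69 RPKM, median 1.77) lay above all 12 KO columns (0.163 to 0.415 RPKM, median 0.274), which held for 1.61% of the 9726 genes with a mean of at least 1 RPKM over the 24 columns. For *Il17f* 10 of the 12 WT columns exceeded the highest KO value of 0.666 RPKM, for *Ccr6* 9 exceeded 1.36 RPKM, for *Il17a* 9 exceeded 0.719 RPKM, for *Rora* 6 exceeded 0.273 RPKM and for *Il22* 4 exceeded 1.73 RPKM. For *Il23r* none did. The 12 columns of a genotype are 3 replicates of 4 cultures, so these counts are a description with no test. For the counts below 12 no share of all genes is given here, so they do not show whether these members are unusual.

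The other Th17 genes were taken from 4 lists. Of 17 transcription regulators of Th17 cells, 16 were tested for TGF-β against control in WT, of which 6 were higher, 2 lower and 8 not called, where 3.42% of all genes tested were higher and 2.28% lower, with a median difference of 0.31 against 0.01 over all genes. *Sgk1*, a kinase that stabilises the IL-23 receptor programme, rose by 1.30 (SE 0.09, adjusted p = 3.45e-05), *Maf*, a factor that drives IL-10 and IL-21, by 1.28 (SE 0.08) and *Nr1d1*, a nuclear receptor of the circadian clock, by 0.86 (SE 0.08, adjusted p = 2.01e-04). *Gfi1*, a repressor that restrains Th17 cells, fell by 1.46 (SE 0.14, adjusted p = 2.12e-04). For TGF-β + IL-4 against control, where 9.27% of all genes were called, 7 were higher and 1 lower, led by *Ikzf3* (1.47, SE 0.06), *Runx1* (1.13, SE 0.07), *Maf* (1.02, SE 0.09) and *Bcl6* (0.91, SE 0.07). KO against WT with TGF-β + IL-4, where 8.44% were called, had 7 lower, among them *Runx1* (-1.26, SE 0.10), *Ikzf3* (-1.21, SE 0.08) and *Maf* (-1.18, SE 0.10), and 1 higher, *Gfi1* (1.30, SE 0.12).

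Of 11 cytokine receptor genes, 9 were tested, and with TGF-β in WT 2 were higher, 3 lower and 4 not called, where 5.71% of all genes were called in either direction. *Il6ra*, the IL-6 receptor, rose from a mean of 6.87 to 15.03 RPKM (1.03, SE 0.06, adjusted p = 1.33e-05), while *Il10ra* (-1.31, SE 0.09), *Il21r* (-0.82, SE 0.06) and *Il12rb1* (-0.76, SE 0.05), the last a subunit shared by the receptors for IL-12 and IL-23, fell. With TGF-β + IL-4 (9.27% of all genes called), 4 were higher, including *Il6ra* (1.35, SE 0.06), *Tgfbr2* (1.08, SE 0.07) and *Il6st*, the signalling partner of the IL-6 receptor (0.72, SE 0.09), and 2 were lower. KO against WT with TGF-β + IL-4 (8.44% of all genes called) had 4 lower, *Il6ra* (-1.67, SE 0.23), *Il2rb* (-1.14, SE 0.06), *Tgfbr2* (-1.14, SE 0.20) and *Il6st* (-0.84, SE 0.10), and none higher.

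Of 14 effector and surface genes only 8 passed the filter for TGF-β against control in WT, of which 3 were higher and 2 lower, against the same 5.71% of all genes. *Ccl20*, the ligand of CCR6, rose from a mean of 3.48 to 12.1 RPKM (1.54, SE 0.12, adjusted p = 8.13e-05) and *Il1rn* from 0.347 to 1.74 RPKM (1.02, SE 0.11), while *Csf2*, which encodes GM-CSF, fell from 5.86 to 1.42 RPKM (-1.51, SE 0.13) and *Gpr65* from 10.8 to 5.07 RPKM (-0.95, SE 0.07). With TGF-β + IL-4 (9.27% of all genes called), 4 were higher, *Klrb1f* (1.56, SE 0.07), *Il1rn* (1.26, SE 0.09), *Cxcr6* (1.17, SE 0.10) and *Lgals3* (1.15, SE 0.05), and 2 lower. KO against WT with TGF-β + IL-4 (8.44% of all genes called) had *Ccl20* (-2.18, SE 0.14), *Il1rn* (-1.43, SE 0.10), *Cxcr6* (-1.12, SE 0.22) and *Klrb1f* (-0.97, SE 0.15) lower and 1 gene higher. The last list held 8 genes of the aryl hydrocarbon receptor, its targets and its binding partner *Arnt*. Of these 3 were tested, *Arnt*, *Tiparp* and *Cyp1a1*. Only *Cyp1a1*, a classical target of the receptor, was called, from a mean of 1.16 RPKM in WT control to 4.15 with TGF-β (1.26, SE 0.09, adjusted p = 5.38e-05) and 3.55 with TGF-β + IL-4 (1.08, SE 0.09, adjusted p = 2.47e-05), with 0.339 RPKM in KO TGF-β + IL-4 (-1.78 against WT, SE 0.14, adjusted p = 8.49e-05). In KO cells TGF-β against control called none of the genes of these 4 lists, where limma called 1 of the 9563 genes tested and 246 had an unadjusted p under 0.05.

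**Figure D3:**
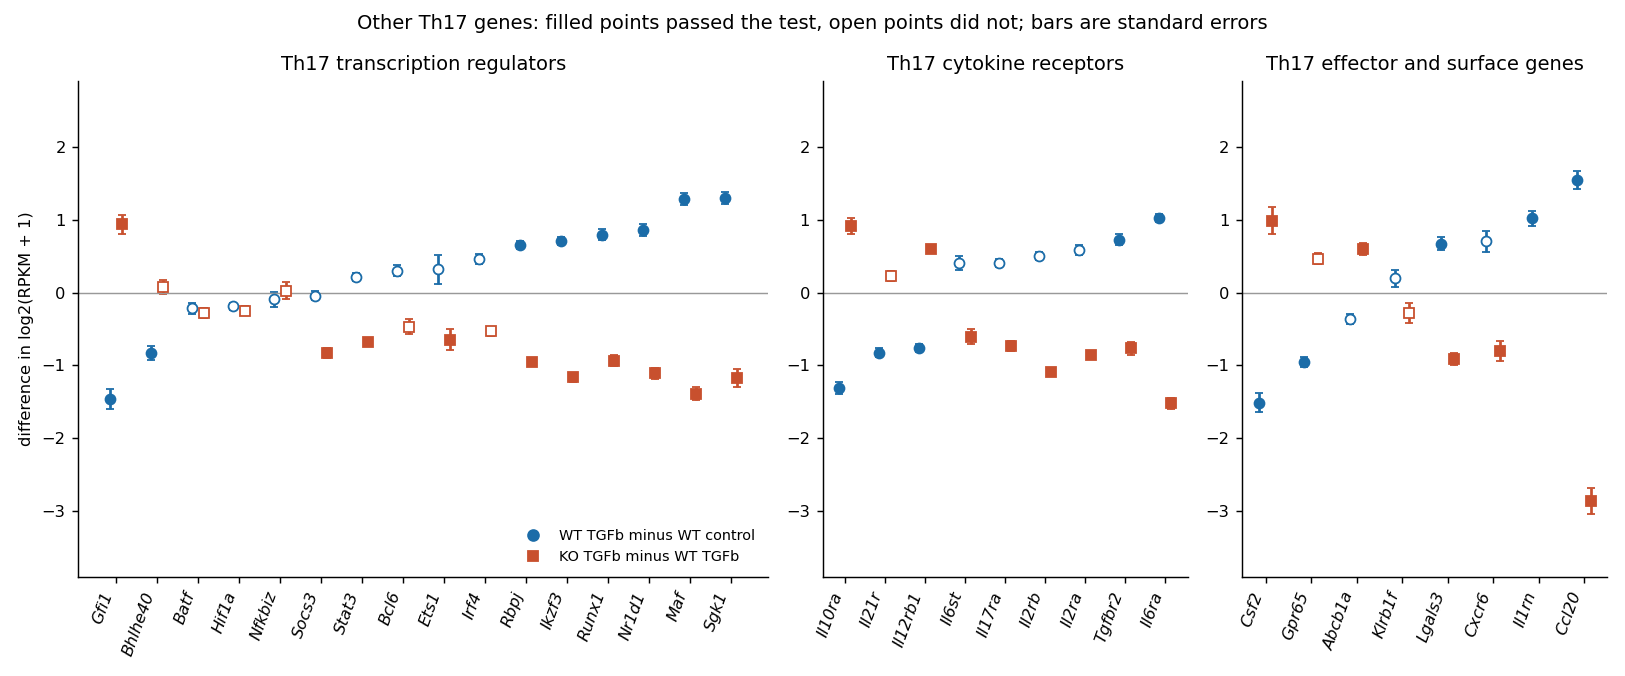
Difference in log2(RPKM + 1), with bars of 1 standard error, for 3 lists of other Th17 genes: WT TGF-β minus WT control as blue circles and KO TGF-β minus WT TGF-β as red squares, filled where the test was passed. *Sgk1* (1.30), *Il6ra* (1.03) and *Ccl20* (1.54) are the highest blue points of their lists, and their red points lie below 0.

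Over the 24 columns, the genes most like a member were found by Pearson's r of log2(RPKM + 1), as a description over points that are 3 replicates of 8 cultures. For *Ccr6* they were *Socs2* (r = 0.986), *Cndp2* (0.983) and *Foxp3* (0.981), and for *Ahr* *Ninj1* (0.983), *Rcan3* (0.981) and *Bin1* (0.980). For *Il17f* they were *Fut7* (0.961), *Fam129b* (0.955) and *Socs2* (0.954), and for *Il22* *Il12rb2* (0.891), *Junb* (0.854) and *Mef2d* (0.834). Among the members themselves, *Ccr6* had r = 0.953 with *Ahr*, 0.952 with *Il17f* and 0.913 with *Rora*, but 0.207 with *Il22*.

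The DHS lists held 42 sites in or within 20 kb of the members, and their number differed widely between genes. With 1 library a condition there was no replicate check, and the lists were of unequal length. In WT, control had 44298 DHSs and TGF-β + IL-4 had 33880, and the KO lists of these cultures had 33665 and 27145. *Rora*, which spans chr9:68501593-69236053 in mm9, had 26 sites, of which 23 were in the WT control list, 15 in each of KO control and WT TGF-β + IL-4, 10 in the list of KO cells given both cytokines and 7 in all 4. With the lists cut to the length of the shortest, 18 sites remained, at 14, 12, 12 and 10 in these lists. Of these 26, 24 were intronic, and 1, at chr9:69137261-69137854, lay in an exon within 1 kb of an internal start and was in all 4 lists, at 4.31- to 6.69-fold enrichment. No DHS of any list overlapped the 300 bases around the first start of *Rora*.

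*Ahr* had 3 sites. The one over its start, chr12:36219608-36220048 on the boundary of the first exon, was in 3 lists (6.18-fold enriched in KO control, 5.64-fold in WT control, and 4.68-fold where WT cells had both cytokines) but missing from KO TGF-β + IL-4, and an intronic one at chr12:36216852-36217176 was in all 4, at 4.40- to 5.63-fold. The third, at chr12:36218890-36219110 in an intron within 1 kb of a start, was in KO TGF-β + IL-4 alone. It was 2.94-fold enriched, at 98.5% of that list when ranked from the strongest. *Il23r* had 8 sites, of which 7 were in WT control and 2 in all 4 lists. *Ccr6* had 2, both in WT control alone, one of them over its start at chr17:8428754-8429007 (4.11-fold, at 81.3% of that list when ranked from the strongest). That DHS overlapped the *Ccr6* promoter shown above, including its TGACCT motif. With lists of equal length neither *Ccr6* site was left, so their absence from the shorter lists cannot be told apart from list length. *Ccr6* RNA had its higher level in the other WT culture with a DHS list, TGF-β + IL-4.

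*Il17a* had 1 site, 9.8 kb after its start and outside the gene, in WT control alone (8.16-fold), *Il17f* had 2 far upstream, 1 in the WT and 1 in the KO list of TGF-β + IL-4, and *Il22* had none. The promoters of *Il17a*, *Il17f*, *Il22* and *Il23r* overlapped no DHS in any list. The 201 bases around the summits of 3 of these sites are shown from mm9 on the gene's strand, because they are the only site near *Il17a*, the *Il17f* site called in WT TGF-β + IL-4 and the *Ahr* site called in all 4 lists. They run from chr1:20730674-20730874, chr1:20791871-20792071 and chr12:36216918-36217118. None of the 3 holds AGGTCA on either strand, which 9.89% of the 33880 WT TGF-β + IL-4 DHSs held in windows of the same length. Among the windows not shown, 1 each of *Ahr* (chr12:36218918-36219118), *Il23r* (chr6:67433171-67433371) and *Ccr6* (chr17:8428816-8429016) holds it once. At *Rora* only the site within 1 kb of a start was searched.
Il17a DHS: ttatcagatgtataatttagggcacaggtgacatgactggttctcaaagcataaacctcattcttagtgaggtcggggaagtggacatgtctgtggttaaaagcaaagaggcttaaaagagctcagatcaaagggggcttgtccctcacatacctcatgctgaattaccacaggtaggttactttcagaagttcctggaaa
Il17f DHS: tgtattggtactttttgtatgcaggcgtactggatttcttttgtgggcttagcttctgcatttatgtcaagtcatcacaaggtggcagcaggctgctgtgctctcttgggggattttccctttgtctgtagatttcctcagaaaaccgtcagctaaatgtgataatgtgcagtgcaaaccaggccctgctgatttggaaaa
Ahr DHS: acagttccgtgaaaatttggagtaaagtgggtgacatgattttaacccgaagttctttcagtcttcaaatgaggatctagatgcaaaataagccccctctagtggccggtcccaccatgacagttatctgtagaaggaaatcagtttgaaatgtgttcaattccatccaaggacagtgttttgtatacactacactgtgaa

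**Figure D4:**
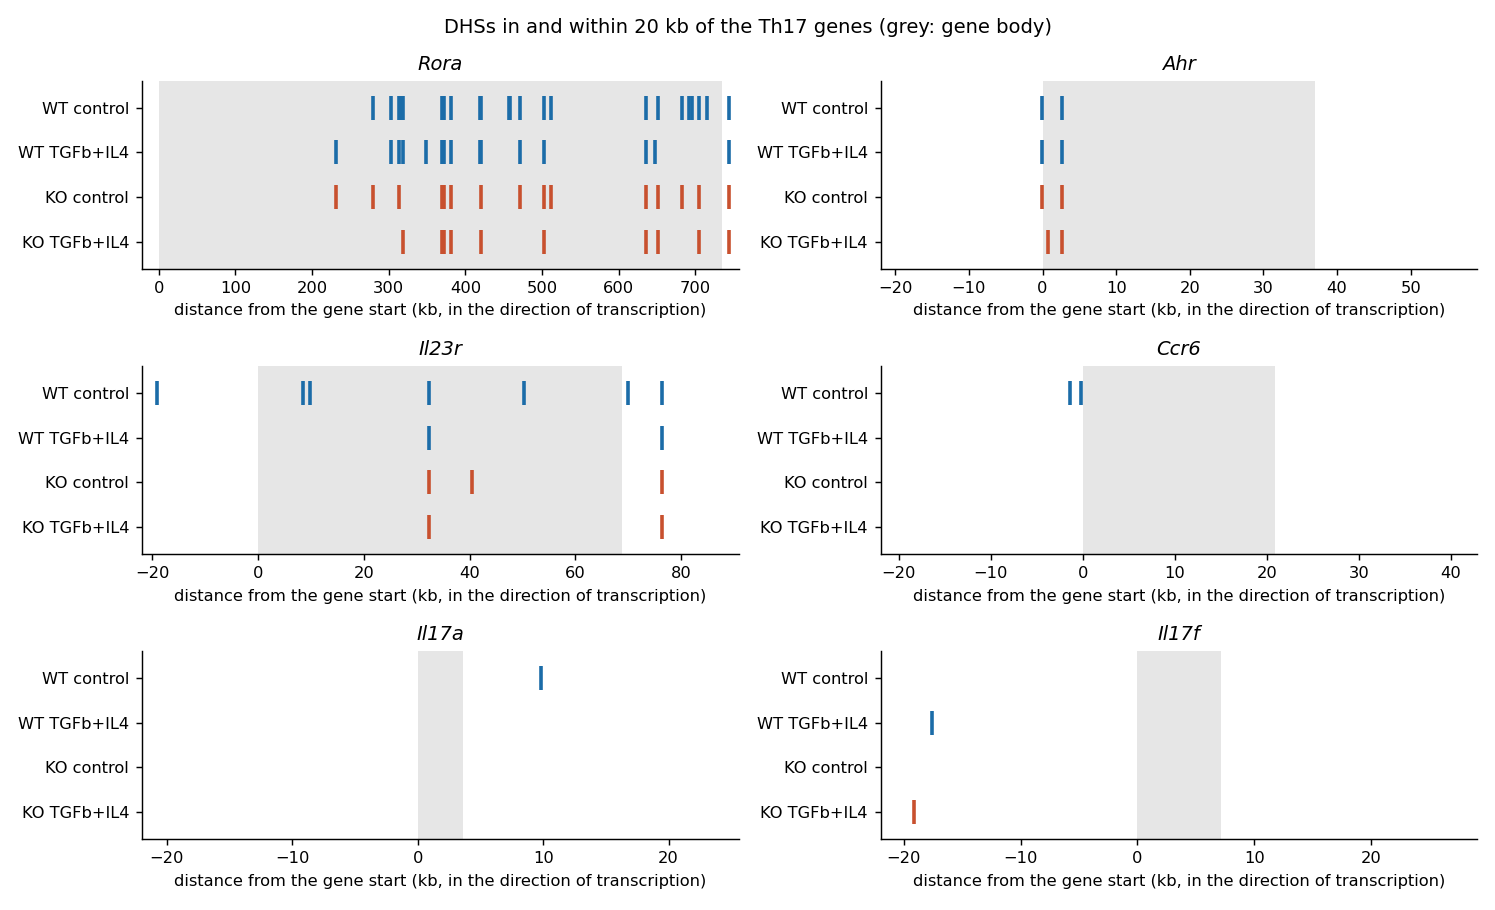
DHSs in and within 20 kb of 6 Th17 genes, as ticks at their distance from the gene start (kb) in each of the 4 lists, with the gene body in grey and each panel to its own scale. *Rora* holds 26 sites, 7 of them in all 4 lists, while *Ccr6* and *Il17a* have ticks in the WT control list alone.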

How the data were processed

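Per the study's methods and the labels, the authors mapped RNA-seq and DNase-seq reads to mm9 with Bowtie2, kept mapped reads after quality and duplicate filters, and called DHSs in each library with MACS2; versions are not given in the sources used here. The authors deposited RPKM for 24089 genes in 24 columns. They also deposited, for each DHS, a fold enrichment over background (a ratio) and significance values as −log10 of p and of q. Values of 1 read recovered from the steps of the deposited RPKM gave relative depths of the columns between 0.575 and 1.20 of WT control replicate 1 (median 0.846). The largest correlation between columns was 0.999.

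RPKM are not counts, so limma 3.58.1 with a mean trend (R 4.3.3) was used on log2(RPKM + 1), with a minimum mean of 1 RPKM, only the compared groups in each fit, and a call at an adjusted p under 0.01 and a fold over 1.5, the thresholds of the study. Tables were handled in pandas 2.3.3 and numpy 2.4.6 under Python 3.11.15, and figures drawn in matplotlib 3.10.9. The fit was tested on simulated data. Columns were read by position, against their headings. The members and gene lists were chosen with earlier results of these data known. One gene of the transcription regulators is not reported here and was left out of the list's counts. Besides the members, up to 4 called genes with the largest change were named per list in 3 comparisons (TGF-β and TGF-β + IL-4 against control in WT, and KO against WT with TGF-β + IL-4), *Tgfbr1* as a check of the labels, and the 3 genes most like each member with a mean of at least 1 RPKM.

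The labels give the cultures of a genotype the same replicate numbers but do not say that a number is 1 animal, so fits had no block, and the number was entered as a replicate block in an alternative fit. DHSs within 20 kb of a GENCODE vM1 gene were merged across lists where at least 1 bp overlapped.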

Additional observations from a re-analysis of the deposited data

Results flagged for a closer look

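The difference between the genotypes in the response to TGF-β was itself tested, and the genotype by TGF-β term passed for *Il17f* (-2.19, SE 0.19, adjusted p = 9.16e-06, limma), *Ccr6* (-1.78, SE 0.13, adjusted p = 1.24e-06) and *Ahr* (-1.38, SE 0.14, adjusted p = 3.42e-05), and without the filter on low values for *Rora* (-0.63, SE 0.06, adjusted p = 1.88e-04). A negative term means a smaller rise in KO than in WT. The genotype by TGF-β + IL-4 term passed for *Ccr6* (-1.61, SE 0.15, adjusted p = 2.85e-05), *Ahr* (-1.25, SE 0.14, adjusted p = 8.79e-05) and, without the filter, *Rora* (-0.69, SE 0.06, adjusted p = 1.40e-04). It also passed for *Il22* with the opposite sign (1.32, SE 0.26, adjusted p = 0.00492), with *Il22* falling from 4.66 to 0.631 RPKM in WT and from 0.749 to 0.312 RPKM in KO by the means, and that call was lost in 4 other settings that kept the sign and with any of 8 single libraries left out.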

How the results depend on the processing

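Reading the columns as headed left 0 members called in WT for each cytokine and the combination against control, and for the combination against each cytokine, for KO against WT in control, TGF-β and TGF-β + IL-4, and for the genotype by TGF-β and genotype by TGF-β + IL-4 terms. It also turned the sign, with no call either way, of *Il17a* with IL-4 (0.36) and TGF-β + IL-4 (0.61), of *Ahr* in TGF-β + IL-4 against TGF-β (0.23), of the interaction terms of *Ahr* (0.25), *Ccr6* (-0.31), *Il17a* (-0.37), *Il17f* (0.21) and *Il22* (-0.19), and of *Il22* in the genotype terms with IL-4 (-0.199), TGF-β (-0.35) and TGF-β + IL-4 (-0.30), the last a call in the reported reading. The cause was not tested beyond the match of the columns to read counts.

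With all 24 libraries in one fit 2 members were called for IL-4 in WT and 1 for KO against WT with IL-4. Without the filter 1 was called for TGF-β + IL-4 against TGF-β, where more genes were tested. With a pseudocount of 0.1 the interaction called 1 member and the *Il17f* term was 0.16. Leaving out 1 library at a time gave 1 to 2 members for IL-4 in WT, 1 to 2 for TGF-β + IL-4 against TGF-β, 0 to 1 for KO against WT with IL-4, 0 to 1 for the interaction (1 without TGF-β + IL-4 replicate 3, *Ccr6*, and without IL-4 replicate 1, *Il17f*) and 1 to 3 for the genotype by TGF-β + IL-4 term. It was 1 without any one of the WT TGF-β + IL-4 libraries, where *Il22* lost its call and the mean of *Ahr* fell below the filter, so that *Ahr* was not tested. For *Il17a* the difference ran from -0.15 to 0.45 with TGF-β and from -0.43 to 0.0401 with TGF-β + IL-4, the last without control replicate 3. *Il22* with IL-4 in WT was called without IL-4 replicate 3 (-1.25), and *Il17f* in the genotype by TGF-β + IL-4 term without KO control replicate 2 (-0.937). Libraries of a genotype that share a replicate number had deviations from their group means that correlated between -0.09 and 0.55 in WT (median 0.06) and between -0.30 and 0.42 in KO (median 0.19). Of these, 8 of 12 WT and 10 of 12 KO libraries correlated best with their own number. Most libraries thus went with their number, so a pairing by number may be present, which the fits without a block leave out. With the number as a replicate block the genotype by TGF-β + IL-4 term called 2 members in place of 3, with *Il22* at 1.32 (adjusted p = 0.016), and in the other fits with the filter the block changed no member's call. Without the filter the block left *Il22* uncalled with TGF-β (-1.53, adjusted p = 0.0258) and *Ccr6* uncalled with IL-4 (-1.21, adjusted p = 0.0272) in WT. Without the filter *Il22* in KO against WT control (-1.68) was also lost when any 1 of 5 of the 6 libraries was left out (adjusted p 0.0128 to 0.0169), and *Ccr6* there without WT control replicate 1 (0.0115). With libraries 1 and 3 alone and no filter, *Ahr* lost its limma calls with TGF-β (adjusted p = 0.0106), TGF-β + IL-4 (0.0166) and TGF-β + IL-4 against IL-4 (0.0118). So did *Ccr6* (0.0126) and *Il22* (0.0116) with TGF-β + IL-4. *Il17f* lost them in TGF-β + IL-4 against TGF-β (0.0103) and against IL-4 (0.0127). The last was also lost with a pseudocount of 0.1 (0.0149) or without any of 3 single libraries (0.0102 to 0.0124). These combined settings were chosen after seeing the data. The 42 DHSs near members were 38 at a −log10 q of at least 5, 28 with lists of equal length and 36 within 5 kb.

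The libraries held few reads of several members, at most 18 for *Il23r* and 160 for *Il17a*, which limits what these genes can show. The culture of the KO columns rests on their order alone, and the DHS lists have no replicate.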
